A study of Mus musculus with 12 samples.

Results

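The 43 mouse genes described here copy the nuclear genome in S phase and supply the deoxynucleotides for it. They are listed by name, with no measured level in the rule, and all 43 were measured among the 16080 genes of the RNA sequencing data. The cells were alveolar epithelial type 2 cells (AEC2), the surfactant-producing cells of the lung alveolus that also divide to renew it. They came from female Bl6 mice at postnatal day 56. C185G mice carry a cysteine-to-glycine change in the BRICHOS domain of the surfactant protein C (SP-C) precursor, encoded by Sftpc. C185Gneo mice are described by the series as hypomorphic controls, and WT mice have unaltered SP-C. All 3 groups, controls included, were given tamoxifen by intraperitoneal injection (200 mg per kg, 2 days), with isolation of AEC2 on day 7. Each group has 4 libraries. The sources used here name neither the recombinase nor the promoter that drives it. Nor do the labels tell whether each library is a different animal, so the p-values reflect only how far these libraries spread, which may be technical.

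Replication starts when the origin recognition complex, Cdc6 and Cdt1 load the ring-shaped MCM2-7 helicase onto DNA, a step that geminin restrains by binding Cdt1. In S phase Cdc45 and the GINS complex join MCM2-7 to form the active helicase, primase and DNA polymerase alpha lay down primers, and the clamp loader RFC places the PCNA clamp that holds the synthesizing polymerases. Ribonucleotide reductase and its partner enzymes keep the deoxynucleotide pool filled, and many of these genes are known transcriptional targets of E2F factors at the G1/S boundary. AEC2 of the healthy adult lung are known to divide rarely.

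Levels are given as normalized CPM, the counts on the scaling the authors chose, brought to a per-million scale. Levels per kb divide by all annotated exon bases of a gene, so ranks between genes depend on that length. Recovered totals ran from 15659512 to 23444287 counts per library, and 1 count was worth 0.0428 to 0.0616 normalized CPM. Changes are log2 differences between group means from limma over all 16080 genes, with the standard error (SE), and genes with a Benjamini-Hochberg adjusted p below 0.05 count as called. Sftpc itself averaged 2833 ± 256 normalized CPM in C185G, 895 ± 143 in C185Gneo and 7467 ± 194 in WT (SD, n = 4 each), lowest in the group described as hypomorphic. Library titles of the C185Gneo group carry the C185G name, and groups here follow the genotype field. The summed level of 10 AEC2 markers was 14113 to 16896 normalized CPM in C185G, 30191 to 34242 in C185Gneo and 33548 to 39362 in WT, and all 10 were lower in C185G than in WT. Against C185Gneo 9 of the 10 were lower in C185G, and Sftpc was higher (log2 change 1.67). Sftpc is part of the sum and was the only 1 of the 10 called in C185Gneo against WT (log2 change -3.07). In such bulk samples fewer cells of a type and less RNA per cell cannot be told apart, nor can more cells and more RNA per cell.

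The promoter sequences of 6 members are shown because 4 members that rose, the clamp gene, which was not called, and a polymerase gene that fell differ in the letters they hold. They are RefSeq promoters of build GRCm38.p6, from 250 bases before to 50 after the start site, on the strand of the gene. Capitals mark the E2F words TTTCGCGC, TTTGGCGC, TTTCCCGC and TTTGCCGC and the CCAAT box, on either strand. Of the 2 Uhrf1 start sites in the table, the one that holds an E2F word is shown.
Mcm5, chr8:75109259-75109558, plus strand: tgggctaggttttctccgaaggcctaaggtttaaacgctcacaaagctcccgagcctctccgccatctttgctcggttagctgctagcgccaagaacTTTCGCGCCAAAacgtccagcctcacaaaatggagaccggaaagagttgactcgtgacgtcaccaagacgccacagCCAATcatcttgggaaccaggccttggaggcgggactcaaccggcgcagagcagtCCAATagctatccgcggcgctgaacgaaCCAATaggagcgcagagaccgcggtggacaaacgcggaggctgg
Mcm3, chr1:20820263-20820562, minus strand: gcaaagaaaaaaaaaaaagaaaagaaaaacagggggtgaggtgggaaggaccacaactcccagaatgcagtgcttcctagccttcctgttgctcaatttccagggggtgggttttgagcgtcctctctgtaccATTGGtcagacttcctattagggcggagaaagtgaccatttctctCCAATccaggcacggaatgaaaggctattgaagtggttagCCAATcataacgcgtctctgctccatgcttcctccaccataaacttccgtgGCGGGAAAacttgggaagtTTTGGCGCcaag
Uhrf1, chr17:56304063-56304362, plus strand: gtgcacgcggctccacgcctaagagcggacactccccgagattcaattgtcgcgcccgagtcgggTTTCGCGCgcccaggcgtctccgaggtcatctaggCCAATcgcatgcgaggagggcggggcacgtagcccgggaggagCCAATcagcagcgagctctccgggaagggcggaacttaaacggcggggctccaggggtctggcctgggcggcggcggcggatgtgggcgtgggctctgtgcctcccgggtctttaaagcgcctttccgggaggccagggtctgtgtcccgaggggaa
Rrm2, chr12:24708004-24708303, plus strand: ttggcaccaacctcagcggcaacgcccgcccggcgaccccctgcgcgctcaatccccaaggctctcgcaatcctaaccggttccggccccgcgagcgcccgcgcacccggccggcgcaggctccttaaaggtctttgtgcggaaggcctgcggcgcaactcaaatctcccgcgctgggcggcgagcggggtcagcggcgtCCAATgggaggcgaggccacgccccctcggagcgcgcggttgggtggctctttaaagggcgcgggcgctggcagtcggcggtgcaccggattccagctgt
Pcna, chr2:132253131-132253430, minus strand: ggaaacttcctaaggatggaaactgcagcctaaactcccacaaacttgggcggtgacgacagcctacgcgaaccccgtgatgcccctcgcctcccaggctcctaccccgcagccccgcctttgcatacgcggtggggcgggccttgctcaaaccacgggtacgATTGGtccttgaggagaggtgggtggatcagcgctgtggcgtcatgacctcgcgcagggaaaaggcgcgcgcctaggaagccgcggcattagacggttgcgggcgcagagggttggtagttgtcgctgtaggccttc
Pold1, chr7:44548766-44549065, minus strand: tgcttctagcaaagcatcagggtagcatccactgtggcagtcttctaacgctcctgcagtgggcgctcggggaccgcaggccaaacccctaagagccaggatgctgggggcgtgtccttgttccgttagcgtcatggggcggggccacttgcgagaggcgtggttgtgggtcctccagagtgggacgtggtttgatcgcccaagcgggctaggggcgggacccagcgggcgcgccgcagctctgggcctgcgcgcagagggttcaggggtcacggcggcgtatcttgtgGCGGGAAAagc
The Mcm5 promoter holds 2 E2F words that overlap in the run TTTCGCGCCAAA, and 3 CCAAT boxes. Mcm3 holds 2 E2F words just after its start site, also with 3 CCAAT boxes. Uhrf1 holds 1 E2F word and 2 CCAAT boxes. Rrm2, whose change was larger than these, and Pcna, which was not called, each hold 1 CCAAT box and none of the E2F words in this window. Pold1 fell and holds 1 E2F word.

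Promoters were matched for 35 of the 43 members. An E2F word stood in 14 of the 35, or 40%, against 2.6% of the 27025 genes with a promoter in the table. It stood in 10 of the 23 matched members that were higher in C185G than in WT, and in 4 of the 12 others. A CCAAT box stood in 21 of 35 members, or 60%, against 41.1% of all genes, and the CHR words TTTGAA and TTCGAA in 7 of 35, or 20%, against 21.7%. Some of the 43 were known as E2F targets before, so the first share is a description of the list, and a match is not a binding site.

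Against WT, 27 of the 43 members rose in C185G, 2 fell (Rfc2 and Pold1) and 14 were not called. Over all genes 55.0% were called, 27.3% higher and 27.8% lower. The members' share of rises is therefore set against 27.3%, and their median log2 change of 0.45 against a median of -0.00 over all genes. With library totals in place of the authors' scaling, 31 members rose and 2 fell, while over all genes 5357 rose and 3593 fell, against 4388 and 4464 on the authors' scaling. The C185G and WT libraries did not overlap for 28 members, against 48.7% of all genes.

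Against C185Gneo, 23 members rose in C185G, 3 fell (Rfc2, Pold1 and Pold2) and 17 were not called. The background was 57.8% called, 29.2% higher and 28.7% lower, and the members' median log2 change was 0.35. In the same comparison 7 of 9 mesenchymal markers were higher in C185G (sums of 599 to 817 normalized CPM in C185G and 179 to 516 in C185Gneo). Of the club and goblet markers 6 of 8 were lower (sums of 4631 to 5371 in C185G and 6124 to 7587 in C185Gneo, median log2 change -0.94). The part of these markers' cells in the result was not tested. Libraries of C185G and C185Gneo did not overlap for 24 members, against 49.9% of all genes. All 23 also rose against WT, and Rfc2 and Pold1 fell in both comparisons, which share the C185G libraries. Mcm2, Pola2, Dut and Chaf1b were called against WT and not against C185Gneo. Called changes over 1 on the log2 scale, all upward, were seen in 10 members against WT and 8 against C185Gneo. The share of all genes with such changes was not counted. Over all genes the changes ran from -5.72 to 7.37 against WT and from -5.73 to 6.91 against C185Gneo.

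**Figure D1:**
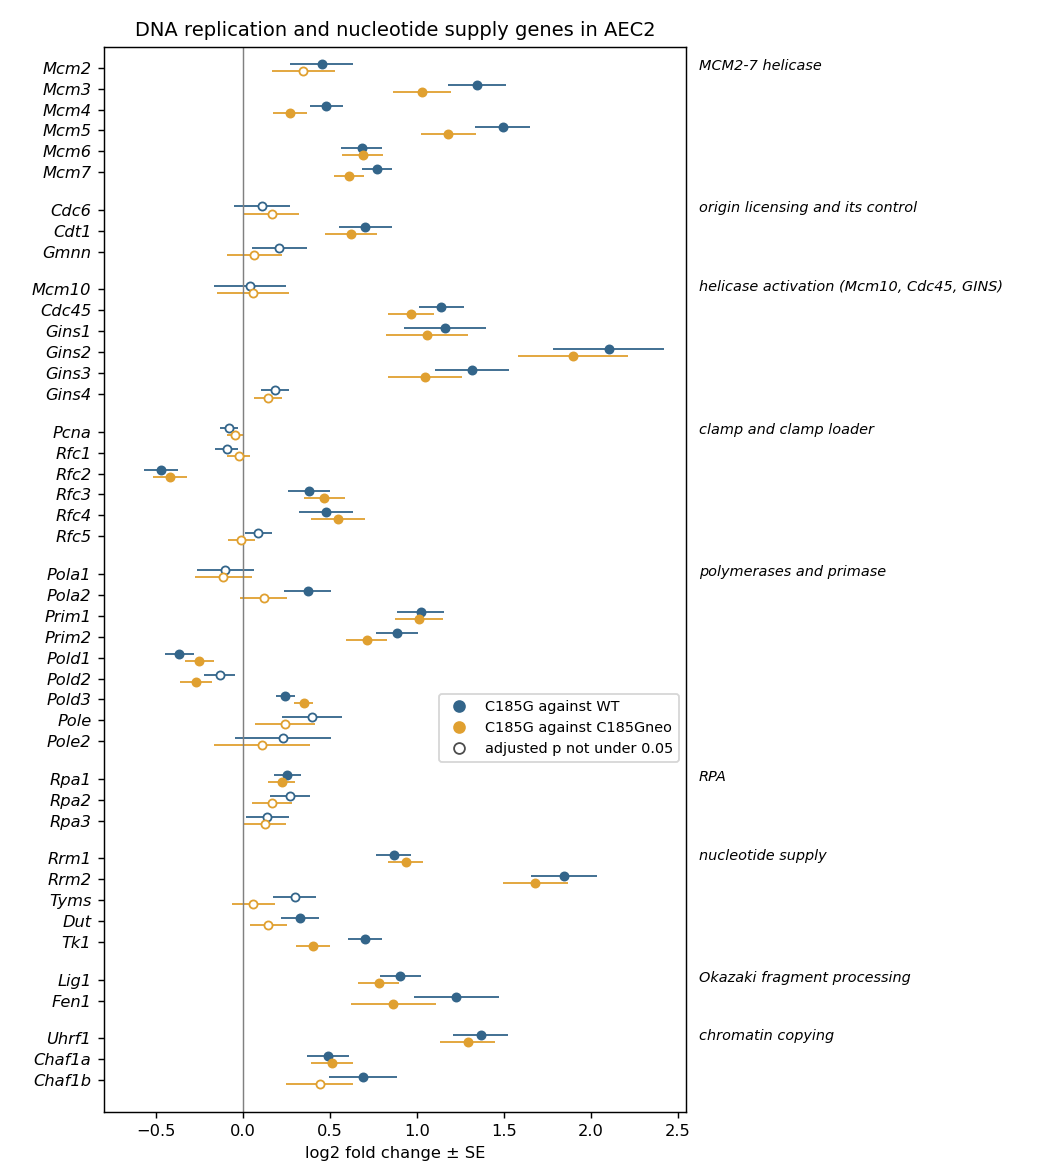
Log2 fold changes of the 43 genes, ordered by role, in C185G against WT (blue) and C185G against C185Gneo (orange), with bars for the SE. Filled points passed an adjusted p of 0.05, and the largest changes against WT were those of Gins2, Rrm2, Mcm5, Uhrf1 and Mcm3, while Rfc2 and Pold1 lay below 0 in both comparisons.

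The 6 subunits of the MCM2-7 helicase all rose against WT, by 0.45 to 1.49 on the log2 scale, and 5 of the 6 rose against C185Gneo. Mcm5 had 18.4, 28.3, 19.8 and 26.6 normalized CPM in the C185G libraries, 12.5, 9.11, 10.53 and 8.59 in C185Gneo, and 8.64, 9.56, 6.97 and 7.52 in WT. Every C185G library stood above every library of both controls. Its log2 change was 1.49 (SE 0.16, adjusted p = 3.8e-06) against WT and 1.18 (SE 0.16, adjusted p = 2.9e-05) against C185Gneo. Mcm3 had 13.7, 20.02, 13.7 and 17.2 in C185G, 11.1, 7.06, 7.38 and 6.44 in C185Gneo, and 6.18, 6.96, 5.85 and 6.10 in WT. It did not overlap with either control, and C185Gneo replicate 1 was the control library nearest to C185G. Its log2 change was 1.34 (SE 0.17, adjusted p = 1.4e-05) against WT and 1.03 (SE 0.17, adjusted p = 0.00013) against C185Gneo.

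Mcm7 had 37.4, 38.4, 34.7 and 38.1 normalized CPM in C185G, 29.2, 23.4, 23.6 and 21.8 in C185Gneo, and 22.2, 23.4, 20.5 and 20.9 in WT. The C185G libraries lay close together and above all others, with a log2 change of 0.77 (SE 0.09, adjusted p = 5.7e-06) against WT and 0.61 (SE 0.09, adjusted p = 4.5e-05) against C185Gneo. Mcm7 shares 7.25% of its exon bases with Ap4m1 and 1.45% with Cops6 on the opposite strand, and whether the counting used strand is not given. Cops6 itself rose by 0.61 against WT (adjusted p = 8.6e-07) and 0.60 against C185Gneo (adjusted p = 9.3e-07), while Ap4m1 was not called (-0.10, adjusted p = 0.29 against WT). Mcm6 rose by 0.68 against WT (adjusted p = 0.00026) and 0.69 against C185Gneo (adjusted p = 0.00023). Mcm4 rose by 0.48 (adjusted p = 0.00078) and by 0.27 (adjusted p = 0.027), and the second call was lost without C185G replicate 2 (adjusted p = 0.0857), C185G replicate 4 (0.085) or C185Gneo replicate 2 (0.0719).

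Mcm2 was the least firm. It had 17.4, 27.9, 23.0 and 26.9 normalized CPM in C185G, 24.2, 20, 16.7 and 14.2 in C185Gneo, and 17.2, 21.1, 14.8 and 15.9 in WT, so C185G replicate 1 lay inside the range of both controls. Its change was 0.45 (SE 0.18, adjusted p = 0.0485) against WT, and the call was lost in 10 of 15 alternative settings. Leaving out C185G replicate 2, 3 or 4 gave an adjusted p of 0.129, 0.0789 and 0.125, and leaving out WT replicate 1, 3 or 4 gave 0.0828, 0.123 and 0.105. Against C185Gneo it was 0.35 (adjusted p = 0.12), and it passed without C185G replicate 1 (0.0247) or C185Gneo replicate 1 (0.0317).

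The subunits form a ring with 1 copy of each, and their levels per kb of exon were unequal in every group. Mcm6 had the highest mean, 10.6 normalized CPM per kb in C185G, 6.57 in C185Gneo and 6.54 in WT. On exon lengths of 6956 bases for Mcm2 and 3752 for Mcm3, the lowest subunit was Mcm2 in all 4 C185G libraries. In all C185Gneo and WT libraries it was Mcm3. The order of subunits within a library depends on these lengths, but the change between groups of a ratio of the same pair of subunits does not. The highest subunit exceeded the lowest by 2.82 to 3.42 times in C185G, 2.72 to 3.58 times in C185Gneo and 3.69 to 4.25 times in WT. The subunits behind this spread differ between groups, so its difference between groups depends on the lengths too. Mcm5 per Mcm2, both per kb, was 1.71 ± 0.147 in C185G, 0.962 ± 0.141 in C185Gneo and 0.827 ± 0.0365 in WT (SD, n = 4 each), with no overlap between C185G and either control.

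**Figure D2:**
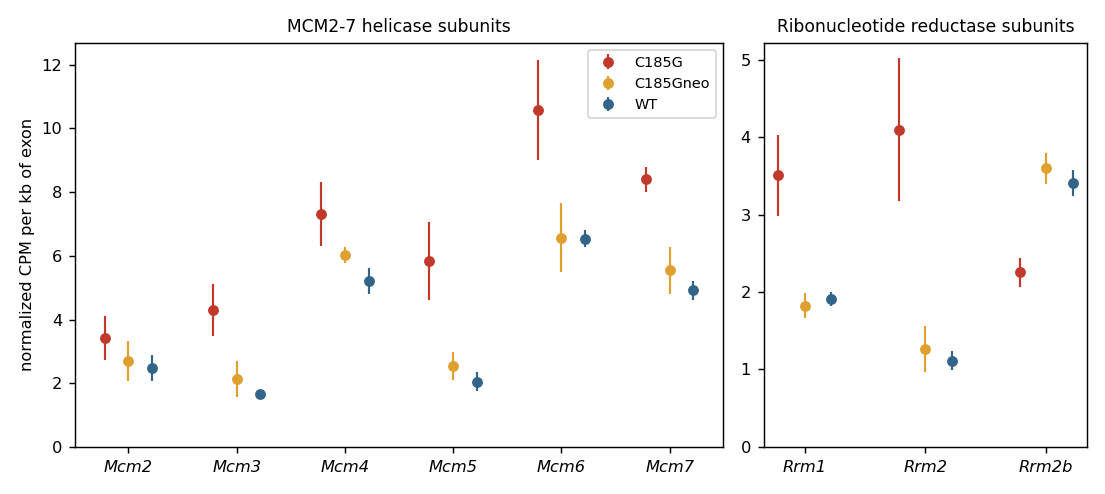
Mean level per kb of exon (points) with SD over 4 libraries (bars), left for the 6 MCM2-7 subunits and right for the ribonucleotide reductase subunits, in C185G, C185Gneo and WT. Mcm5 and Mcm3 stood below Mcm4 and Mcm7 in every group, and Rrm2 exceeded Rrm2b only in the C185G mean (4.10 against 2.25 normalized CPM per kb). The order of genes depends on the exon lengths used.

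Of the licensing genes, 1 of 3 rose in both comparisons. Cdt1, which brings MCM2-7 to origins, had 14.6, 18.6, 18.6 and 23.5 normalized CPM in C185G, 14.9, 12.8, 11.1 and 10.04 in C185Gneo, and 13.2, 11.7, 10.8 and 10.1 in WT. Only C185Gneo replicate 1 reached into the C185G range. The log2 change was 0.70 (SE 0.15, adjusted p = 0.0013) against WT and 0.62 (SE 0.15, adjusted p = 0.0030) against C185Gneo. Gmnn encodes geminin, the Cdt1 inhibitor, and had 7.67, 8.89, 6.27 and 9.98 in C185G, 6.37, 9.28, 7.85 and 7.66 in C185Gneo, and 6.64, 6.39, 6.52 and 8.63 in WT. The groups overlapped, and the change of 0.21 (SE 0.16) against WT had an adjusted p of 0.28. Cdc6, the loading ATPase, had 7.11, 7.78, 5.67 and 6.53 in C185G, 7.40, 4.56, 6.96 and 5.51 in C185Gneo, and 7.04, 6.11, 5.35 and 6.60 in WT. It also overlapped throughout (0.11, SE 0.16, adjusted p = 0.59 against WT). Gmnn per Cdt1, both per kb, was 0.945 ± 0.175 in C185G, 1.41 ± 0.33 in C185Gneo and 1.34 ± 0.336 in WT (SD, n = 4 each), and the ranges overlapped.

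Helicase activation held the member with the largest change, and 4 of its 6 genes rose in both comparisons. Cdc45, the MCM2-7 cofactor, lies at chr16:18780447-18811987 (mm10) and had 8.19, 9.73, 8.45 and 10.2 normalized CPM in C185G, 5.69, 4.11, 4.58 and 4.35 in C185Gneo, and 4.004, 3.96, 4.74 and 3.82 in WT. No control library came within the C185G range. The change was 1.14 (SE 0.13, adjusted p = 6.9e-06) against WT and 0.97 (SE 0.13, adjusted p = 2.8e-05) against C185Gneo. Cdc45 shares 5.96% of its exon bases with Ufd1 on the opposite strand. Ufd1, at 68.2 normalized CPM on average against 5.99 for Cdc45, rose by 1.27 against WT and 1.22 against C185Gneo. The part of Ufd1 reads in the Cdc45 counts was not tested, so the size of the Cdc45 change is uncertain.

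Gins1, Gins2 and Gins3 were among the lowest members, so the changes of these 3 GINS subunits rest on few counts. Gins2 had 3.35, 4.52, 3.27 and 6.04 normalized CPM in C185G, 1.58, 1.67, 0.714 and 0.755 in C185Gneo, and 0.858, 1.07, 0.669 and 1.29 in WT, which are 60 to 98 counts in C185G, 12 to 37 in C185Gneo and 12 to 21 in WT. The C185G libraries were all higher, with a log2 change of 2.10 (SE 0.32, adjusted p = 7.9e-05) against WT and 1.90 (SE 0.32, adjusted p = 0.00017) against C185Gneo. Its exon bases lie to 67.3% in Gse1 on the opposite strand, a gene at 163 normalized CPM on average that changed by -0.26, so the Gins2 level is uncertain. Gins3 had 1.34, 1.54, 1.31 and 1.29 in C185G, 0.770, 0.5001, 0.654 and 0.697 in C185Gneo, and 0.458, 0.622, 0.502 and 0.555 in WT. Those are 21 to 33 counts in C185G, 9 to 18 in C185Gneo and 8 to 11 in WT. It did not overlap either, and changed by 1.32 (SE 0.21, adjusted p = 0.00014) against WT and 1.05 (SE 0.21, adjusted p = 0.00085) against C185Gneo. Gins1 rose by 1.16 against WT (adjusted p = 0.00087) and 1.06 against C185Gneo (adjusted p = 0.0016).

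The last GINS subunit was not called. Gins4 averaged 17.6 ± 0.92 normalized CPM in C185G, 15.9 ± 1.3 in C185Gneo and 15.5 ± 0.889 in WT (SD, n = 4 each). Per kb it was 13.0 in C185G, 11.8 in C185Gneo and 11.5 in WT, against 0.506 in C185G, 0.242 in C185Gneo and 0.197 in WT for Gins3, so the levels of subunits of the same complex differed widely. Its change of 0.18 against WT had an adjusted p of 0.064, and it passed without WT replicate 1 (0.0481), with library totals as scaling (0.0123) and with no mean-variance trend in the fit (0.0478). Against C185Gneo its change of 0.14 (adjusted p = 0.14) passed with library totals (0.0392). Mcm10, which helps to activate the loaded helicase, spread from 37.3 to 50.04 in C185G, 32.7 to 50.9 in C185Gneo and 26.4 to 55.7 in WT, with a change of 0.04 against WT (adjusted p = 0.88).

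The gene of the clamp was not called. Pcna had 105, 101, 100.4 and 106 normalized CPM in C185G, 110.0, 99.6, 108 and 108 in C185Gneo, and 108, 111, 114 and 104 in WT. The 3 groups overlapped, and the change was -0.08 (SE 0.05, adjusted p = 0.18) against WT and -0.05 (SE 0.05, adjusted p = 0.44) against C185Gneo. Pcna was the highest member per kb in every group, at 42.96 in C185G, 44.4 in C185Gneo and 45.5 in WT, and it has 2 named pseudogenes, 1 of them measured, so reads between them are uncertain.

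Among the clamp loader genes 2 rose, 1 fell and 2 were not called in both comparisons. Rfc2 had 49.8, 44.8, 35.8 and 39.0 normalized CPM in C185G, 51.2, 56.01, 61.8 and 56.4 in C185Gneo, and 53.7, 56.8, 58.5 and 64.9 in WT. All C185G libraries lay below all controls, with a log2 change of -0.47 (SE 0.10, adjusted p = 0.00097) against WT and -0.42 (SE 0.10, adjusted p = 0.0022) against C185Gneo. Rfc3 had 8.498, 9.92, 9.92 and 10.8 in C185G, 8.13, 7.45, 6.84 and 5.92 in C185Gneo, and 8.24, 7.75, 6.63 and 7.40 in WT. It was higher in every C185G library, by 0.38 (SE 0.12, adjusted p = 0.015) against WT and 0.47 (SE 0.12, adjusted p = 0.0043) against C185Gneo. Rfc4 had 5.46, 6.19, 5.23 and 8.75 in C185G, 4.41, 4.56, 4.34 and 3.89 in C185Gneo, and 4.18, 4.75, 5.07 and 4.07 in WT. It stood higher too, by 0.48 (SE 0.16, adjusted p = 0.019) against WT and 0.54 (SE 0.16, adjusted p = 0.0086) against C185Gneo.

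The Rfc4 call against WT was lost without C185G replicate 4 (adjusted p = 0.0581) or WT replicate 4 (0.0525). Rfc4 shares 12.7% of its exon bases with Eif4a2, Rfc2 15.1% with Lat2 and Rfc5 10.7% with Wsb2, each on the opposite strand. Against WT, Eif4a2 fell by 1.05 (adjusted p = 1.2e-05), Wsb2 rose by 0.27 (adjusted p = 0.0010) and Lat2 changed by -0.06 (adjusted p = 0.84). The large subunit gene Rfc1 changed by -0.09 (adjusted p = 0.25) and Rfc5 by 0.09 (adjusted p = 0.35) against WT. The summed clamp group was 209 to 225 normalized CPM in C185G, 229 to 236 in C185Gneo and 235 to 245 in WT, and Pcna made up the largest part of it.

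Primase rose while the catalytic subunit of polymerase delta fell. Prim1, the catalytic primase subunit at chr10:128015168-128030037, had 7.62, 10.3, 7.47 and 9.73 normalized CPM in C185G, 5.05, 4.17, 4.11 and 3.95 in C185Gneo, and 4.12, 4.64, 3.85 and 4.499 in WT. Both controls lay below every C185G library. Its change was 1.02 (SE 0.14, adjusted p = 2.7e-05) against WT and 1.01 (SE 0.14, adjusted p = 2.7e-05) against C185Gneo. Prim2, the large primase subunit, had 10.3, 13.9, 11.6 and 15.7 in C185G, 7.70, 7.45, 7.91 and 7.89 in C185Gneo, and 6.69, 7.13, 6.80 and 6.78 in WT. It did not overlap in any pair of groups, and changed by 0.89 (SE 0.12, adjusted p = 3.0e-05) against WT and 0.71 (SE 0.12, adjusted p = 0.00018) against C185Gneo.

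Pold1, which encodes the polymerase delta catalytic subunit, had 19.7, 18.1, 16.1 and 17.9 normalized CPM in C185G, 23.7, 22.2, 19.9 and 19.8 in C185Gneo, and 22.3, 23.3, 22.1 and 25.0 in WT. Every C185G library was lower than every control library. The change was -0.37 (SE 0.08, adjusted p = 0.0020) against WT and -0.25 (SE 0.08, adjusted p = 0.019) against C185Gneo. The call against C185Gneo was lost without C185G replicate 3 (adjusted p = 0.0625), C185Gneo replicate 1 (0.0644) or C185Gneo replicate 2 (0.0507), and with library totals as scaling (0.0878). Pold2, an accessory subunit of the same polymerase, had 19.6, 21.8, 22.2 and 22.3 in C185G, 29.8, 26.4, 24.6 and 23.3 in C185Gneo, and 22.8, 24.5, 26.2 and 21.1 in WT. It was lower than in C185Gneo in all libraries (-0.27, SE 0.09, adjusted p = 0.020) but overlapped with WT (-0.14, SE 0.09, adjusted p = 0.22). Its call against C185Gneo was lost without C185G replicate 1 (adjusted p = 0.0506) or C185Gneo replicate 1 (0.0684), and with library totals (0.0677).

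Pold3, another delta subunit, moved the other way, at 43.5 ± 0.985 normalized CPM in C185G, 34.2 ± 2.11 in C185Gneo and 36.8 ± 0.807 in WT (SD, n = 4 each). It rose by 0.24 (adjusted p = 0.0023) against WT and 0.35 (adjusted p = 0.00013) against C185Gneo. Pola2, the regulatory subunit of polymerase alpha, rose by 0.37 against WT (adjusted p = 0.032). That call was lost without C185G replicate 2 (0.086), C185G replicate 4 (0.0762), WT replicate 3 (0.104) or WT replicate 4 (0.0902), and in a fit of the 8 libraries alone (0.0546). The polymerase alpha catalytic gene Pola1 (-0.10, adjusted p = 0.62) and the epsilon genes Pole (0.40, adjusted p = 0.066) and Pole2 (0.23, adjusted p = 0.50) were not called against WT. Pole passed without C185G replicate 1 (0.03) or C185G replicate 3 (0.0399), in a fit of the 8 libraries alone (0.0474) and with library totals (0.0327). Pole2 rests on 15 to 47 counts in C185G, 20 to 35 in C185Gneo and 14 to 27 in WT.

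**Figure D3:**
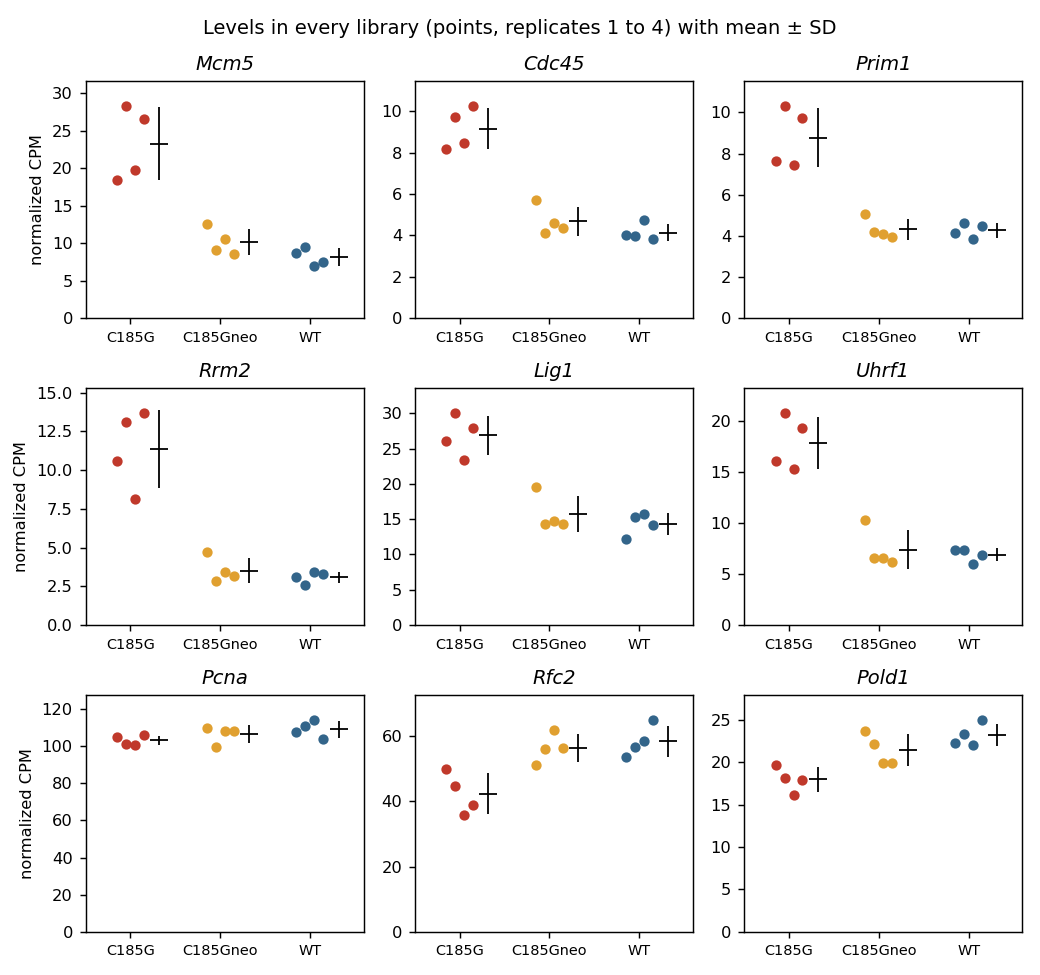
Normalized CPM of 9 members in each library (points, replicates 1 to 4 from left to right within a group) with the group mean and SD (cross). The 4 C185G points lie above all control points for Mcm5, Cdc45, Prim1, Rrm2, Lig1 and Uhrf1, below them for Rfc2 and Pold1, and among them for Pcna.

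RPA coats the single-stranded DNA behind the helicase. Rpa1 had 45.8, 53.5, 46.5 and 57.0 normalized CPM in C185G, 40.0, 44.3, 46.0 and 43.1 in C185Gneo, and 42.6, 38.9, 45.5 and 42.7 in WT. The lowest C185G library was just above the highest WT library and inside the C185Gneo range. It rose by 0.25 (SE 0.08, adjusted p = 0.014) against WT and 0.22 (SE 0.08, adjusted p = 0.027) against C185Gneo. The second call was lost without C185G replicate 2 (adjusted p = 0.074), C185G replicate 4 (0.0886), C185Gneo replicate 1 (0.077) or C185Gneo replicate 4 (0.0502).

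Rpa2 had 10.2, 11.0, 10.4 and 11.3 normalized CPM in C185G, 11.2, 8.56, 9.64 and 8.88 in C185Gneo, and 10.1, 7.92, 9.81 and 7.89 in WT. Its change of 0.27 (SE 0.12) had an adjusted p of 0.061 against WT, although those groups did not overlap, and it passed without WT replicate 1 (0.0354) or WT replicate 3 (0.048), and with library totals (0.0195). Rpa3 had 8.29, 7.26, 6.87 and 6.65 in C185G, 7.23, 6.22, 6.07 and 7.08 in C185Gneo, and 5.61, 6.90, 7.75 and 6.22 in WT. It overlapped in all groups (0.14, SE 0.12, adjusted p = 0.36 against WT).

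Of the nucleotide supply genes 4 of 5 rose against WT and 3 of 5 against C185Gneo. Rrm2 encodes the small subunit that carries the radical of ribonucleotide reductase and is made for S phase. It had 10.6, 13.1, 8.12 and 13.7 normalized CPM in C185G, 4.70, 2.83, 3.39 and 3.13 in C185Gneo, and 3.09, 2.602, 3.40 and 3.27 in WT. The lowest C185G library was above the highest control library, and the change was 1.85 (SE 0.19, adjusted p = 2.3e-06) against WT and 1.68 (SE 0.19, adjusted p = 5.0e-06) against C185Gneo. Rrm1, the large subunit, had 31.9, 44.3, 35.9 and 42.5 in C185G, 22.3, 19.3, 20.4 and 18.2 in C185Gneo, and 19.8, 20.8, 22.3 and 21.1 in WT. It also stood apart in every C185G library, with 0.87 (SE 0.10, adjusted p = 7.9e-06) against WT and 0.94 (SE 0.10, adjusted p = 3.5e-06) against C185Gneo.

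The alternative small subunit Rrm2b, which p53 is known to induce and which serves resting cells, is no member and fell by 0.60 against WT (adjusted p = 1.2e-05) and 0.68 against C185Gneo (adjusted p = 3.5e-06). Rrm2 per Rrm2b, both per kb, was 1.54, 2.06, 1.31 and 2.45 in C185G, 0.449, 0.273, 0.364 and 0.322 in C185Gneo, and 0.317, 0.262, 0.375 and 0.361 in WT. The level per kb of Rrm2 exceeded that of Rrm2b in all 4 C185G libraries and in none of the others. Rrm2 per Rrm1 was 1.17 ± 0.188 in C185G, 0.691 ± 0.107 in C185Gneo and 0.584 ± 0.0576 in WT (SD, n = 4 each). The exon lengths used were 2771 bases for Rrm2 and 11012 for Rrm1. Which subunit of a ratio is the higher depends on such lengths, while the difference between groups does not.

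Tk1, the cytosolic thymidine kinase of S phase, had 17.9, 18.4, 18.8 and 24.4 normalized CPM in C185G, 15.01, 14.8, 14.6 and 15.2 in C185Gneo, and 12.6, 11.5, 11.5 and 12.8 in WT. No pair of groups overlapped. The change was 0.70 (SE 0.10, adjusted p = 3.5e-05) against WT and 0.40 (SE 0.10, adjusted p = 0.0027) against C185Gneo. Dut, which removes dUTP, rose by 0.33 against WT (adjusted p = 0.020), a call lost without C185G replicate 2 (0.0678), C185G replicate 4 (0.0513) or WT replicate 1 (0.0658), and changed by 0.15 against C185Gneo (adjusted p = 0.27). Tyms, thymidylate synthase, changed by 0.30 against WT (adjusted p = 0.059) and passed without C185G replicate 3 (0.0175) or WT replicate 2 (0.0318), with library totals (0.0221) and with no mean-variance trend (0.0471). It has 1 named pseudogene.

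Both Okazaki fragment genes rose in both comparisons. Lig1 encodes DNA ligase I, which seals the fragments, and lies at chr7:13277283-13311433. It had 26.1, 30.03, 23.4 and 28.0 normalized CPM in C185G, 19.5, 14.3, 14.7 and 14.3 in C185Gneo, and 12.2, 15.3, 15.8 and 14.2 in WT. C185G was higher in every library, by 0.91 (SE 0.12, adjusted p = 2.3e-05) against WT and 0.78 (SE 0.12, adjusted p = 7.8e-05) against C185Gneo. Fen1, the flap endonuclease, had 1.39, 1.68, 1.64 and 1.85 in C185G, 0.813, 0.834, 1.19 and 0.755 in C185Gneo, and 1.03, 0.679, 0.613 and 0.493 in WT. That is 27 to 36 counts in C185G, 13 to 20 in C185Gneo and 8 to 18 in WT, without overlap, and a change of 1.23 (SE 0.24, adjusted p = 0.00076) against WT and 0.86 (SE 0.24, adjusted p = 0.0079) against C185Gneo. A gene on the opposite strand covers 78.8% of the Fen1 exon bases, so its low counts are uncertain.

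The chromatin-copying genes all rose against WT. Uhrf1 brings the maintenance methylase Dnmt1 to newly copied DNA and had 16.1, 20.8, 15.3 and 19.3 normalized CPM in C185G, 10.3, 6.61, 6.54 and 6.15 in C185Gneo, and 7.32, 7.36, 5.96 and 6.90 in WT. All C185G libraries were above all controls, C185Gneo replicate 1 being the nearest. The change was 1.37 (SE 0.16, adjusted p = 7.2e-06) against WT and 1.29 (SE 0.16, adjusted p = 1.1e-05) against C185Gneo. Chaf1a and Chaf1b encode the 2 large subunits of CAF-1, the chaperone that places histones behind the fork. Chaf1a had 11.1, 14.3, 12.4 and 16.4 in C185G, 8.98, 9.95, 9.64 and 9.06 in C185Gneo, and 8.35, 10.3, 9.25 and 10.4 in WT. It was higher in every C185G library, by 0.49 (SE 0.12, adjusted p = 0.0033) against WT and 0.51 (SE 0.12, adjusted p = 0.0023) against C185Gneo, and 52.5% of its exon bases overlap Ubxn6 on the opposite strand.

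Chaf1b had 5.20, 7.68, 9.10 and 11.1 normalized CPM in C185G, 6.84, 5.17, 6.19 and 5.40 in C185Gneo, and 4.46, 5.66, 5.18 and 4.499 in WT. C185G replicate 1 lay among the controls. The change was 0.69 (SE 0.19, adjusted p = 0.0080) against WT and 0.44 (SE 0.19, adjusted p = 0.065) against C185Gneo, where it passed without C185G replicate 1 (adjusted p = 0.0026) or C185Gneo replicate 1 (0.0499), and with library totals (0.0371).

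With microRNA genes left out, exon bases shared with another gene were found for 12 members. Rpa1, which shares 44 bases with the microRNA gene Gm47300, is therefore counted among the other 31. Of these 31, 19 rose and 1 fell against WT, where 27.3% of all genes were higher and 27.8% lower. Against C185Gneo 15 of the 31 rose and 2 fell, where 29.2% of all genes were higher and 28.7% lower. Among the overlapping genes not yet described, Zswim9 (5.79% of the Lig1 exon bases) fell by 0.54 against WT (adjusted p = 0.0016), and Ubxn6 (0.05, adjusted p = 0.47), Afmid, which overlaps Tk1 (0.01, adjusted p = 0.94), and Tmem258, which overlaps Fen1 (-0.05, adjusted p = 0.65), were not called.

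**Figure D4:**
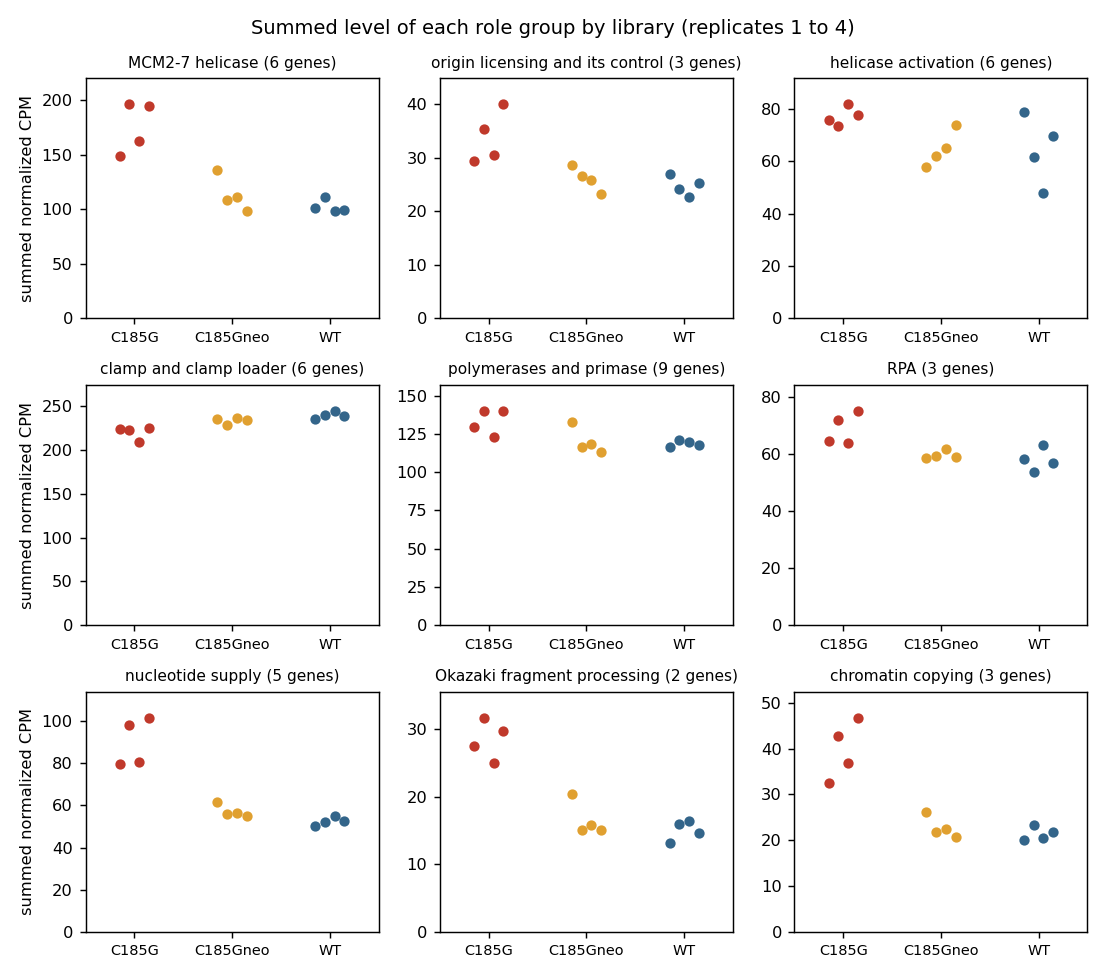
Summed normalized CPM of each role group in every library (points, replicates 1 to 4 from left to right) for C185G, C185Gneo and WT. The MCM2-7 sums were 149 to 197 in C185G, 98.6 to 136 in C185Gneo and 98.6 to 111 in WT, and the clamp group sums were 209 to 225 in C185G, 229 to 236 in C185Gneo and 235 to 245 in WT.

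Summed over all 43 genes, the level was 812 to 931 normalized CPM in C185G, 692 to 757 in C185Gneo and 688 to 704 in WT. The nucleotide supply group summed to 79.9 to 102 in C185G, 54.7 to 61.5 in C185Gneo and 50.3 to 54.8 in WT. Within C185G, replicate 4 was the highest of its group for 20 members and replicate 2 for 15, against 25.8% and 18.1% of all genes. Replicates 1 and 3 were the lowest for 20 and 19 members, a count not made over all genes. Replicates 1 and 3 still exceeded every control library for Mcm3, Mcm5, Cdc45, Prim1, Rrm1, Rrm2, Lig1 and Uhrf1.

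No member was called between the 2 control genotypes, C185Gneo and WT, where 0.541% of all genes were called by limma, 0.249% higher and 0.292% lower. At an unadjusted p under 0.05 there were 2, Tk1 (0.30, adjusted p = 0.28) and Mcm4 (0.21, adjusted p = 0.52), and 0 members were called under any of 15 alternative settings. The C185Gneo and WT libraries did not overlap for 3 members, Tk1, Mcm4 and Prim2, against 6.87% of all genes. The members' median log2 change was 0.10, and the group means ran C185G, C185Gneo, WT from high to low for 29 of the 43. This order and the unadjusted p were not counted over all genes, so neither count is read as a feature of the members. C185Gneo replicate 1 was the highest library of its group for 28 members, against 29.2% of all genes. That library also had the lowest summed mesothelial markers of its group, at 65.3 normalized CPM against 261 to 559, and the lowest mesenchymal markers, at 179 against 378 to 516. The part of this in the result was not tested. Without it, 24 members rose and 1 fell against C185Gneo.

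Other genes of the cell cycle and of nucleotide metabolism were read from lists beside the 43, and none of them was called in C185Gneo against WT. Their counts against WT stand beside the 55.0% of all genes called, 27.3% higher and 27.8% lower. The share called was 33.3% in the origin recognition list and 46.2% in the G1/S list, both below that of all genes, and 57.9% in the checkpoint list, near it. Of the origin recognition complex, 2 of 6 genes rose against WT, Orc6 (0.57, adjusted p = 3.0e-05) and Orc2 (0.72, adjusted p = 0.00034), and none fell. Of 9 initiation kinases and adaptors 6 rose, among them Wdhd1 (0.95, adjusted p = 7.1e-05), Topbp1 (0.67, adjusted p = 0.00017) and Ticrr (1.78, adjusted p = 0.00049). Of 19 fork protection and replisome genes 10 rose and 4 fell. The topoisomerase Top2a changed by 1.77 (adjusted p = 8.9e-06), the alternative clamp loader gene Chtf18 by 1.75 (adjusted p = 1.7e-05) and the fork protector Timeless by 1.44 (adjusted p = 3.7e-05), and Chtf8, Pole4, Rnaseh2c and Mcm9 fell by 0.26 to 0.50.

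Among 10 genes of S-phase chromatin 6 rose and 3 fell. The methylase Dnmt1, which Uhrf1 guides, averaged 92.2 normalized CPM in C185G, 59.1 in C185Gneo and 59.9 in WT (0.62 against WT, adjusted p = 1.3e-06), and Hells rose by 1.42 (adjusted p = 0.00012). The histone chaperone gene Nasp fell by 0.74 (adjusted p = 3.7e-05), and Cdca7 and Cbx5 fell as well. Of 17 genes of the E2F and RB family 10 rose and 2 fell. The activators E2f1 (0.91, adjusted p = 0.00057) and E2f3 (0.94, adjusted p = 1.1e-05) and the repressor E2f6 (1.03, adjusted p = 1.5e-07) rose, but the activator E2f2 fell to 21.01 normalized CPM in C185G, against 44.7 in C185Gneo and 40.1 in WT (-0.94 against WT, adjusted p = 7.8e-06). Lin52, a subunit of the DREAM complex, fell by 0.65 (adjusted p = 1.8e-05) while its partner Lin54 rose by 1.28 (adjusted p = 1.3e-06).

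Of 13 cyclins, CDKs and activators of G1/S, 5 rose and 1 fell, with Cks1b at 1.26 (adjusted p = 2.0e-05), Ccna2 at 1.29 (adjusted p = 0.00017) and Ccnd2 at -0.43 (adjusted p = 0.015). Among 6 CDK inhibitors 3 rose and 1 fell, including Cdkn2b at 1.0 (adjusted p = 0.0016) and Cdkn1b at -0.69 (adjusted p = 2.0e-06). Of 19 checkpoint and recombination genes 8 rose and 3 fell. Rad18 changed by 1.99 (adjusted p = 7.0e-06) and Brca1 by 1.25 (adjusted p = 3.7e-05), while Ung and Atrip were among those that fell, by 0.68 and 0.78. Of 29 mitosis genes 26 rose and 2 fell, with a median of 1.59, and their sum was 256 to 421 normalized CPM in C185G, 134 to 205 in C185Gneo and 116 to 165 in WT.

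Nucleotide enzymes outside the 43 moved in both directions. Of 11 other deoxynucleotide enzymes 5 rose, among them Nme1 (0.93, adjusted p = 1.7e-06) and the dNTP hydrolase Samhd1 (0.72, adjusted p = 4.3e-05), and 3 fell, Rrm2b, Dck (-0.54, adjusted p = 8.4e-05) and Dguok (-0.44, adjusted p = 0.0020). Of 19 purine and pyrimidine synthesis genes 9 rose and 5 fell, with a median of 0.01. Prps2, which makes the ribose phosphate donor, fell to 49.3 normalized CPM in C185G, against 211 in C185Gneo and 213 in WT, a log2 change of -2.12 against WT (adjusted p = 2.0e-08). Mthfd1 fell by 1.15 (adjusted p = 1.4e-07), Adssl1 rose by 1.03 (adjusted p = 6.1e-07), and Pfas, Ppat and Impdh2 fell by 0.33, 0.22 and 0.18.

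**Figure D5:**
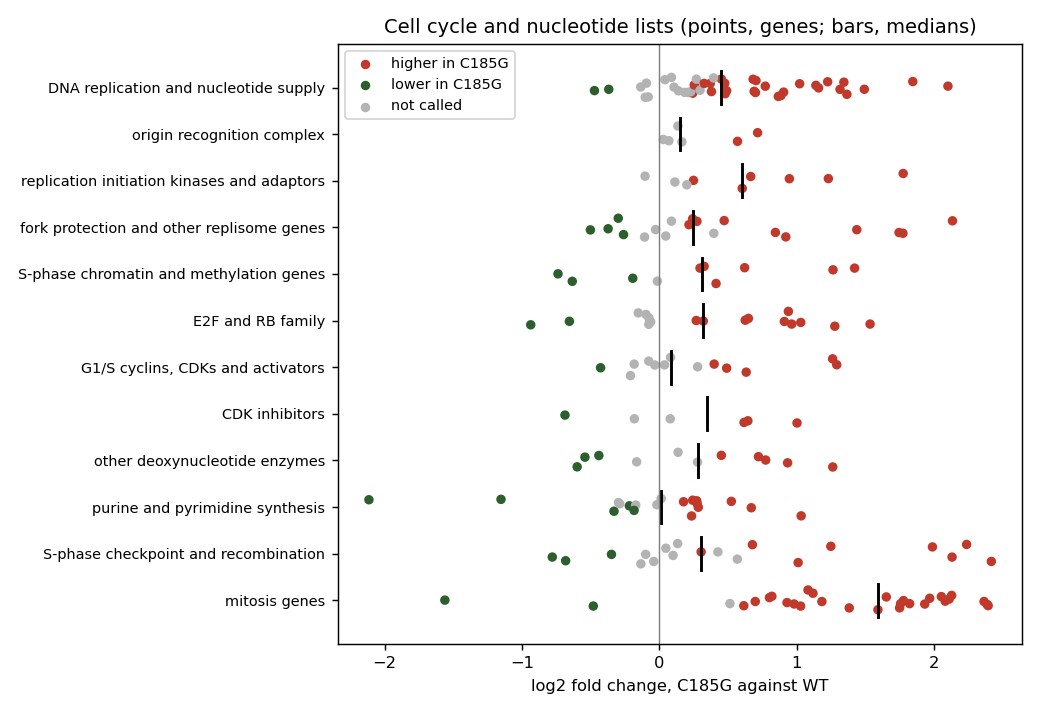
Log2 fold change of each gene (points) in C185G against WT for the 43 genes and the other lists, with the list median (black bar). The mitosis list has the highest median, 1.59, and the purine and pyrimidine list lies around 0 with a median of 0.01.

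Markers of other cells were read beside these counts, and no measured marker was at 0 in all 12 libraries. Mesenchymal markers, 9 of 9 measured, summed to 599 to 817 normalized CPM in C185G, 179 to 516 in C185Gneo and 457 to 713 in WT, with 1 of 9 higher against WT and 7 of 9 against C185Gneo. Mesothelial markers, 4 of 4 measured, summed to 502 to 661 in C185G, 65.3 to 559 in C185Gneo and 326 to 463 in WT, with 0 called against WT and 2 against C185Gneo. Neutrophil and monocyte markers, 4 of 6 measured, summed to 20.1 to 84.5 in C185G, 21.2 to 33.9 in C185Gneo and 17.2 to 35.4 in WT. In C185G, S100a8 and S100a9 were higher and Ly6c2 lower, and each comparison held 2 higher and 1 lower. Libraries did not overlap for 1 of the 4 against WT and 2 against C185Gneo. The sum of 20.1, in C185G replicate 3, lay inside the WT range and below all C185Gneo libraries.

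Ptprc encodes CD45, the leukocyte antigen used to deplete blood cells, and was 6.85 to 9.36 in C185G, 6.31 to 8.22 in C185Gneo and 6.16 to 9.04 in WT (0.04 against WT, adjusted p = 0.82). Of the endothelial markers 6 of 8 fell against WT, with sums of 116 to 138 in C185G, 144 to 230 in C185Gneo and 158 to 248 in WT. Macrophage markers (4 of 8 measured) summed to 51.0 to 61.2 in C185G, 44.1 to 58.8 in C185Gneo and 49.4 to 65.8 in WT. Of these 4, 2 were higher and 1 lower in C185G in both comparisons, and 1 was lower in C185Gneo than in WT. Lymphocyte markers (2 of 9 measured) summed to 3.22 to 5.82 in C185G, 3.06 to 4.76 in C185Gneo and 4.13 to 5.89 in WT. Of these 2, 1 was lower in C185G in both comparisons. Against WT, alveolar type 1 markers were called higher for 2 of 8 and lower for 1, club and goblet markers lower for 2 of 8, ciliated markers lower for 4 of 8 and basal markers lower for 1 of 2 measured. Against C185Gneo, endothelial markers were lower for 7 of 8, club and goblet markers for 6 of 8 and ciliated markers for 4 of 8, alveolar type 1 markers were higher for 2 of 8 and lower for 1, and of the basal markers 1 was higher and 1 lower. In C185Gneo against WT, libraries did not overlap for 4 of the 8 club and goblet markers, and Muc5b alone was called, as higher (1.64, adjusted p = 0.014). The log2 changes of these 8 ran from -0.06 to 3.06 with a median of 0.75, and the largest rise over all genes was also 3.06. The part of other cells in the rises of the replication genes was not tested.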

How the data were processed

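Values for 16080 genes in 12 AEC2 libraries were analysed. Per the submitters' processing notes, STAR, limma and the mm10 build were used. How reads were counted, and with what strand setting, is not given in the sources used here. The deposited values are log2 values. From the values, the authors added 0.5 to whole counts, multiplied by a library factor and took the log2: 100% of counts came out whole within 1e-06, so limma was used for the log2 unit. All libraries entered 1 fit (R 4.3.3, limma 3.58.1, lmFit, eBayes with a trend and robust option), a mean for each genotype, no covariate and no filter on low values. Symbols and coordinates came from GENCODE mouse release 21 (GRCm38). Promoters came from RefSeq. The script was tested on simulated data.

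The 43 genes and the other lists were chosen with earlier results of these data known. Every member is given. Values in every library are given for Pcna, Mcm5, Rrm2, up to 3 members per role with the smallest p against WT, and called members against the common direction; other lists have up to 3 such genes, plus called genes against the list's direction. E2f1, E2f3, Hells, Samhd1 and Rrm2b values beyond that rule, and those of Mcm2, Chaf1b, Sftpc and Ptprc, were picked after being seen. Some genes of the other lists that this rule names are counted with their list but not reported here.

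Alternatives were only the 8 libraries compared, library totals, quantile normalization, voom weights, no trend, a minimum mean of 1 CPM, a replicate block, and each library left out.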

Additional observations from a re-analysis of the deposited data

Results flagged for a closer look

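Of 129 sets of 4 libraries, 1 per member and group, 6 held a library whose gap to its nearest neighbour took up more of the whole range than Dixon's 95% critical value; chance does this in about 1 of 20 sets. All values are normalized CPM. Gins1 stood at 2.84 in C185G replicate 2, against 2.18 to 2.28 in the other C185G libraries. Tk1 stood at 24.4 in C185G replicate 4, with 17.9 to 18.8 in the rest of that group. Lig1 was 19.5 and Uhrf1 10.3 in C185Gneo replicate 1, where the other C185Gneo libraries had 14.3 to 14.7 for Lig1 and 6.15 to 6.61 for Uhrf1. Mcm4 was 20.3 in C185Gneo replicate 2, below the other 3 at 21.9 to 22.1. Gmnn was 8.63 in WT replicate 4, above the other WT libraries at 6.39 to 6.64.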

How the results depend on the processing

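No called change of a member reversed under any alternative run. Members higher in C185G than in WT numbered 27, and 23 to 28 with 1 library left out; against C185Gneo they numbered 23, and 21 to 25. Members lower against C185Gneo numbered 3, but 1 with library totals as scaling, and 1 to 3 with 1 library left out, 1 of them without C185Gneo replicate 1. Over all genes, C185Gneo against WT gave 87 calls, 54 without the mean-variance trend and 40 to 81 with 1 library left out. Of these 40 were higher (21 to 35 with 1 library left out) and 47 lower (18 to 47, 27 with the replicate block, 26 without the trend). Same-numbered libraries correlated between -0.3 and 0.253 after removing group means, and between 0.0349 and 0.253 for C185Gneo and WT. Differently numbered libraries were not compared in this way, so pairing by number was not tested. With the replicate block 28 members were called against WT, the lost one being Mcm2 (adjusted p = 0.0522), 26 against C185Gneo and 0 in C185Gneo against WT. The minimum mean of 1 CPM removed 1 member, Gins3. Depth limits Gins1, Gins2, Gins3, Fen1 and Pole2 most, where the added 0.5 counts understate changes, and 2 members, Gins3 and Fen1, had a library under 10 counts.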
